A study of Mus musculus with 2 samples.

Results

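Peptide hormone enteroendocrine cells were taken from 2 single-cell RNA-seq libraries of mouse intestinal epithelium, 1 for each genotype: wild type (WT) and MG53 transgenic (MG53-TG). A barcode was selected on its own measured values. It had to reach a set minimum of unique molecular identifiers (UMIs, the counted RNA molecules), hold 200 genes or more, and have no more than 25% of its UMIs from mitochondrial genes. It also needed a UMI of at least 3 of the 6 genes Chga, Chgb, Neurod1, Scg3, Cpe and Pcsk1, and no UMI of Tph1, the enzyme of serotonin synthesis. This rule found 290 cells, 181 in WT and 109 in MG53-TG, of 12554 barcodes that passed the depth and mitochondrial limits (7401 and 5153). Both genotypes received 2.5% dextran sulfate sodium (DSS), which damages the intestinal epithelium, and were sampled on day 7. Crypt cells were sorted by flow cytometry for EpCAM, an epithelial surface protein, and for exclusion of the dead-cell dye 7-AAD, and were then captured in droplets. MG53, also called TRIM72, is a membrane repair protein of muscle, and the study describes its overexpression in these mice as global, with WT littermates as controls. The sources used here do not name the promoter of the transgene, the age of the mice or the stretch of intestine. The study gives a group size for this experiment, but no source used here ties a barcode to a mouse. Each genotype was therefore 1 sample, cells were not treated as replicates, no test between genotypes was made, and every interval below is a 95% interval that covers counting error only.

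Enteroendocrine cells are scattered epithelial cells that sense the contents of the gut and release hormones. They arise from crypt stem cells through a brief stage with the transcription factor Neurog3, after which Neurod1, Insm1, Pax6, Isl1, Rfx6 and Nkx2-2 install the endocrine program. Peptide hormones are cut from precursors by the convertases Pcsk1 and Pcsk2, trimmed by Cpe and stored in granules built with granins such as Chga and Chgb. The classical letters name the cells by product. K cells make Gip, the glucose-dependent insulinotropic peptide, L cells make Gcg (the precursor of GLP-1) and Pyy, D cells make Sst (somatostatin), I cells make Cck (cholecystokinin), S cells make Sct (secretin), N cells make Nts (neurotensin) and X cells make Ghrl (ghrelin). Enterochromaffin cells, which carry Tph1, are the serotonin branch and were kept apart.

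The genes that name the largest classes are shown here with the bases before their starts, because the cells were described by these transcripts. RefSeq windows on GRCm38.p6 (mm10) were read 5′ to 3′ on the gene's strand. Capitals mark CANNTG (the E-box read by basic helix-loop-helix factors such as Neurod1), TGACGTCA (the cyclic AMP response element) and GATAA, each searched on both strands. Gip was read from chr11:96024295-96024544 on the plus strand, Gcg from chr2:62483654-62483903 and Cck from chr9:121495695-121495944, both on the minus strand, as the 250 bases before the start. For Sst (chr16:23890874-23890903, minus strand) and the granin Chgb (chr2:132781559-132781588, plus strand), 30 bases around the cyclic AMP element are given, since GENCODE also starts transcripts of these genes further upstream.
Gip: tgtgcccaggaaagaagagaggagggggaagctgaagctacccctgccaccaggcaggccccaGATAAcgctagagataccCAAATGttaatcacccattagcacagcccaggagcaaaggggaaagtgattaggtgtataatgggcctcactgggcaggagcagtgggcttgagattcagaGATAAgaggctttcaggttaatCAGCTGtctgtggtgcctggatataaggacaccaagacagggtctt
Gcg: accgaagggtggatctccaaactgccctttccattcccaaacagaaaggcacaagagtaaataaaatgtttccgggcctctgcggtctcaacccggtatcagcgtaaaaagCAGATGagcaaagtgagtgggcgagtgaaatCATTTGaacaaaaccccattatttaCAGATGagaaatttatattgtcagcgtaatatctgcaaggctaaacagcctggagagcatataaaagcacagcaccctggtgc
Cck: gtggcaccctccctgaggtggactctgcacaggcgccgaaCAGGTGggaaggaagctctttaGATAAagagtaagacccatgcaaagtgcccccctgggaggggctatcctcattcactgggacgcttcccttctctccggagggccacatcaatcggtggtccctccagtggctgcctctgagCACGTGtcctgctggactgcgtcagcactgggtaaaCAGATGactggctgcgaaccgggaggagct
Sst: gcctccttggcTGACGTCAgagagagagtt
Chgb: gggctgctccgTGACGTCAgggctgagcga

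CANNTG was present in the Gip, Gcg and Cck windows, and 66.2% of all 32851 RefSeq windows of 250 bases held it. The Gip window held CANNTG at 2 places and GATAA at 2, and GATAA was found in 22.6% of all windows. TGACGTCA lay 48 to 41 bases before the Sst start and 72 to 65 bases before the Chgb start, and 1.55% of all windows held it. These matches describe letters and say nothing about binding. All 18 genes looked up by name (the gate genes, the hormones, Tph1 and Trim72) were found in GENCODE vM21 with the Ensembl identifier that the deposited tables give. Gip (ENSMUSG00000014351) spans positions 96024545 to 96030831 of chromosome 11.

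The endocrine label was checked on markers outside the gate, and it held for most, but not all, of the selected cells. Of 12 such markers, among them Scg2, Scg5, Pcsk1n, Insm1, Pax6, Isl1, Rfx6, Nkx2-2, Scgn, Resp18 and Fev, all were detected in each library. Together they held a median of 0.442% of a cell's UMIs in WT, with a range of 0 to 1.51%, and 0.491% in MG53-TG, with a range of 0 to 1.52%. In barcodes outside the gate their median was 0 in both libraries. The cells that entered the gate with exactly 3 of its 6 genes were different. In WT there were 35 of them, with a median of 3 gate UMIs in total and 0 of the 12 outside markers, and only 5 had a leading hormone. In MG53-TG there were 11, with a median of 19 gate UMIs and 4 outside markers, and 4 had a leading hormone. Just outside the gate, with 2 of the 6 genes, lay 264 WT and 109 MG53-TG barcodes, with a median of 2 gate UMIs and 0 outside markers in each library. Median depth of the 3-gene cells was 23073 UMIs in WT and 12420 in MG53-TG, while the cells with all 6 genes had 9279 and 11116.

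Transcripts of other lineages were concentrated in few of the selected cells, and they were unequal between the libraries. Markers of goblet, Paneth, tuft, absorptive and T cells (5 lists summed) reached 5% or more of all UMIs in 28 WT cells (15.5%, 10.5 to 21.6%) and in 6 MG53-TG cells (5.50%, 2.05 to 11.6%). The difference was -9.97 points, with an interval of -16.6 to -2.45. Goblet markers led in 20 of the 28 WT cells and Paneth markers in 4, and those 28 cells held 31.8% of all UMIs of the WT selection. The 6 MG53-TG cells held 16.5%. Over the 8 Paneth markers, a WT cell ranged from 0.0166 to 70.3% of its UMIs and an MG53-TG cell from 0 to 1.34%, and no marker of the list was at 0 in either library. Over the 8 goblet markers the ranges were 0 to 59.0% and 0.0267 to 28.6%. Values between libraries are therefore given over all selected cells, over the 153 WT and 103 MG53-TG cells under 5%, and over the 139 and 92 cells with a leading hormone. The share that these other lineages have in any one gene's difference was not tested beyond these restricted values. No barcode was shared between the selected cells of the libraries, and 8 were shared among all filtered barcodes.

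**Figure D1:**
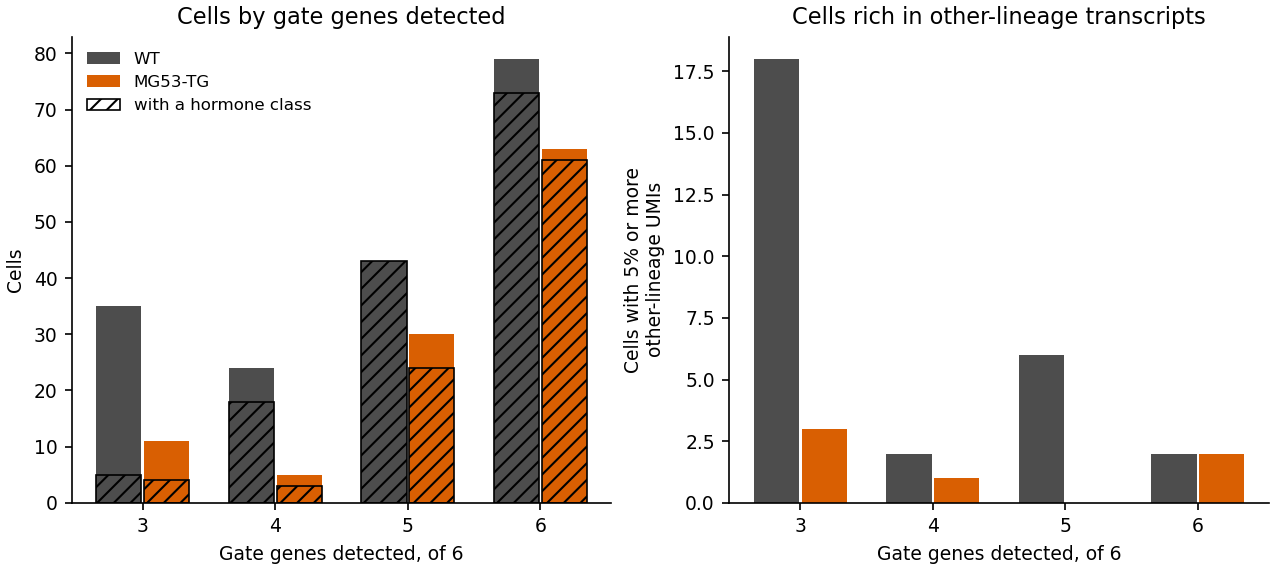
Left, number of selected cells by how many of the 6 gate genes had a UMI, in WT (grey) and MG53-TG (orange), with the hatched part showing cells in which a hormone held at least 0.2% of UMIs. Right, number of cells with 5% or more UMIs of other lineages, 18 of the 28 in WT having exactly 3 gate genes.

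The share of these cells did not differ detectably between the libraries. They made up 2.45% of WT barcodes (2.11 to 2.82%) and 2.12% of MG53-TG barcodes (1.74 to 2.55%), a difference of -0.330 points with an interval of -0.851 to 0.210. Without the cells rich in other lineages the shares were 2.07 and 2.0%, and the difference was -0.068 points (-0.562 to 0.447). With 2 gate genes instead of 3 the difference was -1.78 points (-2.55 to -1.0), over 445 and 218 cells. After every cell was thinned to the UMI minimum the difference was 0.110 points (-0.347 to 0.591). With a mitochondrial limit of 50% it was -0.519 points, and its interval (-0.903 to -0.129) did not include 0. Enterochromaffin cells, which passed the same gate with Tph1, made up 2.19% (162 cells) and 1.49% (77 cells), a difference of -0.695 points (-1.16 to -0.213).

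Gip was the most common leading hormone in both libraries, followed by Sst. A cell was put in the class of the hormone with most UMIs if that hormone held at least 0.2% of its UMIs, with Gcg and Pyy in 1 class. The Gip class held 49 WT cells (27.1% of the selection, 20.7 to 34.2%) and 30 MG53-TG cells (27.5%, 19.4 to 36.9%). The Sst class held 30 and 17 cells, or 16.6 and 15.6%. The order of these classes was the same in both libraries, but the intervals of the smaller classes overlapped widely. The Cck class held 20 and 11 cells, the Gcg/Pyy class 12 and 10, the Sct class 9 and 11, the Ghrl class 10 and 9, and the Nts class 9 and 4. No cell was led by Iapp, which at 3 cells of the total allows a share of up to 1.66% in WT and 2.75% in MG53-TG, and Insl5, a hormone of colonic L cells, had 0 UMIs in the selected cells of both libraries. The Sct class held 4.97 against 10.1%, a difference of 5.12 points (-0.941 to 12.6), which was 0.72 points with a minimum of 1% of UMIs. The intervals of all class differences included 0. No hormone led in 42 WT cells (23.2%) and 17 MG53-TG cells (15.6%).

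Leading hormones filled a large part of the messenger RNA of their cells. In the Gip class, Gip held a median of 17.6% of a cell's UMIs in WT, from 0.649 to 35.3%, and 16.0% in MG53-TG, from 0.703 to 44.7%. Sst held a median of 18.4% (0.701 to 44.1%) and 18.9% (0.294 to 38.6%) in its class. Nts held 11% (3.23 to 43.5%) and 10.7% (7.56 to 15.4%). Those medians lay close together in the 2 libraries. Cck reached less, with medians of 4.76 and 6.07%. For Sct and Ghrl the medians lay further apart, at 6.48 against 0.843% for Sct and 6.09 against 2.08% for Ghrl, in classes of 9 to 11 cells whose ranges overlapped almost fully.

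**Figure D2:**
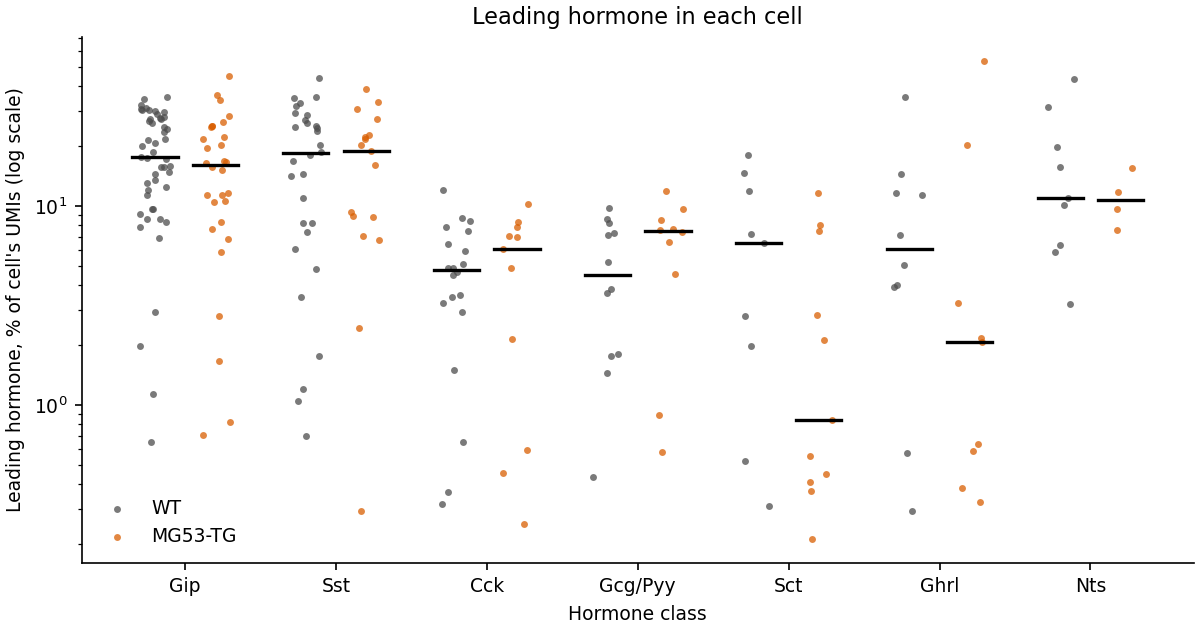
Share of a cell's UMIs held by its leading single hormone (log scale), by hormone class, with 1 point per cell, WT in grey and MG53-TG in orange, and medians as black bars. Gip and Sst cells of both libraries lie mostly between 1% and 45%, while the Sct and Ghrl cells of MG53-TG include many below 1%.

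For most hormones nearly all transcripts were found in the selected cells, with Sct, Nts and Cck as exceptions. Of all Gip UMIs in filtered barcodes, 97.5% in WT and 97.9% in MG53-TG lay in them, and for Gcg the values were 94.8 and 96.7%. For Sst they were 94.7 and 99.1%, and for Ghrl 95.5 and 93.6%. Secretin was divided with the enterochromaffin cells, which held 38.5 and 35.3% of Sct UMIs in WT and MG53-TG, while the selected cells held 41.3 and 34.4%. The rest of the Sct UMIs lay outside the gate, where 35.8 and 48.4% of barcodes had one. Nts and Cck were divided unequally between libraries. Enterochromaffin cells held 24.5 and 59.6% of Nts UMIs in WT and MG53-TG, respectively. For Cck these values were 16.0 and 41.1%. Few enterochromaffin cells were past 0.2% of UMIs, 6 in each library for Nts, and 7 and 10 for Cck. Outside the gate, 22.7% of WT and 15% of MG53-TG barcodes had a Gip UMI (median depths 14818 and 18563 UMIs), but only 1 and 3 barcodes passed 0.2%. Since single Gip UMIs were this common outside the gate, shares are given past 0.2%. Single cells weighed on some sums. A single MG53-TG cell held 57.4% of all Ghrl UMIs of its selection and a single WT cell 35.9%.

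More than 1 hormone per cell was the rule. Hormones past 0.2% of UMIs numbered 2 or more in 104 selected cells of WT and 69 of MG53-TG, and 6 and 3 cells had 5. Gcg went with Cck, in 27 of 28 WT cells and in 14 of 17 MG53-TG cells with Gcg. Cck went with Sct, in 50 of 59 and in 34 of 37 cells. Gip also went with Sct, in 43 of 61 and in 29 of 39 cells, and with Cck in 25 and 15. In contrast, Gip and Gcg were past 0.2% together in 1 of 61 WT cells with Gip and in 0 of 39 of MG53-TG. Sst had other partners. Iapp (amylin) was found past 0.2% only together with Sst, in all 16 such cells of WT and all 9 of MG53-TG, and Ghrl was past 0.2% in 15 of 31 and 12 of 18 cells with Sst. No Sst-led cell of either library had Gcg, Cck or Nts past 0.2%. Sct was past 0.2% in 12 of 30 Sst-led cells of WT and in 1 of 17 of MG53-TG. Ghrl was shared more widely, and was past 0.2% in 9 of 28 and 6 of 17 cells with Gcg. The part that droplets with more than 1 cell have in these pairs was not tested.

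**Figure D3:**
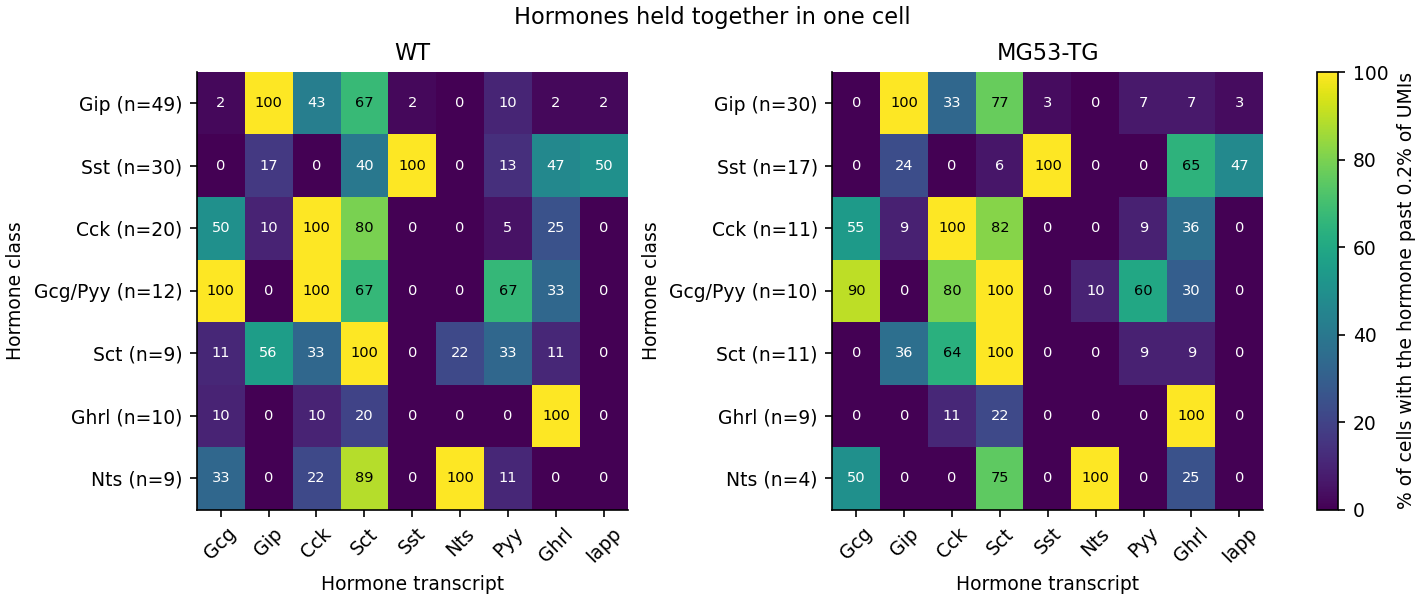
Percentage of cells of each hormone class (rows) in which each hormone (columns) held at least 0.2% of UMIs, in WT (left) and MG53-TG (right), with the number of cells per class. Sct is widespread, Gcg and Cck go together, and Iapp is confined to the Sst class apart from 2% of WT and 3% of MG53-TG Gip-led cells.

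Some transcription factors were highest in the same hormone class of both libraries and others were not. For a gene with at least 20 UMIs in hormone-led cells of each library, the class with the highest summed level (CPM, UMIs of the gene scaled to a fixed total of the cells' UMIs) was noted. The same class was highest in WT and MG53-TG for 14 of 23 endocrine transcription factors, 7 of 19 granule genes, 4 of 15 exocytosis genes, 3 of 6 nutrient receptors, 3 of 5 peptide receptors and 6 of 14 excitability genes. Over all 6840 genes with that many UMIs, 24.0% had the same highest class of the 7. Hhex, a homeobox factor known from D cells of the pancreas, was the clearest. It stood at 492 and 499 CPM in Sst cells of WT and MG53-TG, with a UMI in 29 of 30 and 17 of 17 of them. The next class had 138 and 81.7 CPM, each from 1 cell with Hhex. Etv1 was highest in the Gcg/Pyy class (999 and 1184 CPM) and next in the Cck class of WT (522 CPM) and the Nts class of MG53-TG (774 CPM). In Sst cells Etv1 was at 3.04 and 4.06 CPM. Isl1, a LIM homeobox factor of many endocrine types, was spread more evenly, from 336 CPM in Nts cells to 1242 CPM in Ghrl cells of WT and from 399 to 1426 CPM in the same classes of MG53-TG. Pax6 was highest in the Sct class (723 and 639 CPM), but its next class had 623 CPM (Cck) and 550 CPM (Gip). Neurog3, the factor of endocrine precursors, had 0 UMIs in the Gip, Gcg/Pyy and Nts classes of both libraries. It was at 230 and 197 CPM in the Ghrl class, with a UMI in 5 of 10 and 5 of 9 cells. In MG53-TG its highest class was Cck, at 292 CPM, which came from 2 of 11 cells, whereas the WT Cck class had 0 UMIs.

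Some receptors were also highest in the same class of both libraries, while the nutrient receptors Ffar1, Ffar3 and Ffar4 and the peptide receptors Galr1 and Avpr1b were not. Glp1r, the receptor of GLP-1, was at 231 and 223 CPM in Sst cells and was detected in 24 of 30 and 12 of 17 of them, against 5.63 CPM or less in every other hormone class. Cnr1, a cannabinoid receptor, was highest in Gip cells, at 366 CPM with 42 of 49 cells positive for WT and 295 CPM with 24 of 30 for MG53-TG, and had 0 UMIs in the Gcg/Pyy and Ghrl classes. Its next class had 189 and 145 CPM. Gpr119, a receptor for fatty acid amides, led in Gcg/Pyy cells (168 and 81.7 CPM, 9 of 12 and 5 of 10 cells) and had 0 UMIs in Sst and Ghrl cells. Ffar2, a receptor for short-chain fatty acids, was highest in Ghrl cells (386 and 536 CPM) and was detected in 10 of 10 and 9 of 9 of them. It was low in Gip cells, at 7.51 and 28.3 CPM. Slc15a1, the intestinal peptide transporter, was highest in Gcg/Pyy cells (214 and 398 CPM). Granule genes varied in level between classes, and some also in presence. Rab3c, a small GTPase of secretory vesicles, had 0 UMIs in Gip and Sst cells of both libraries, while 4 of 10 WT Ghrl cells had it. Chgb, a granin, was detected in 49 of 49 and 30 of 30 Gip cells at 9383 and 10755 CPM, and stood at 18273 and 21490 CPM in Sct cells but at 497 and 567 CPM in Ghrl cells. Chga went the other way, at 201 and 187 CPM in Gip cells and 3496 and 1994 CPM in Ghrl cells. Chga and Chgb were part of the selection, so their presence is not a finding, and the classes hold 4 to 49 cells each.

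**Figure D4:**
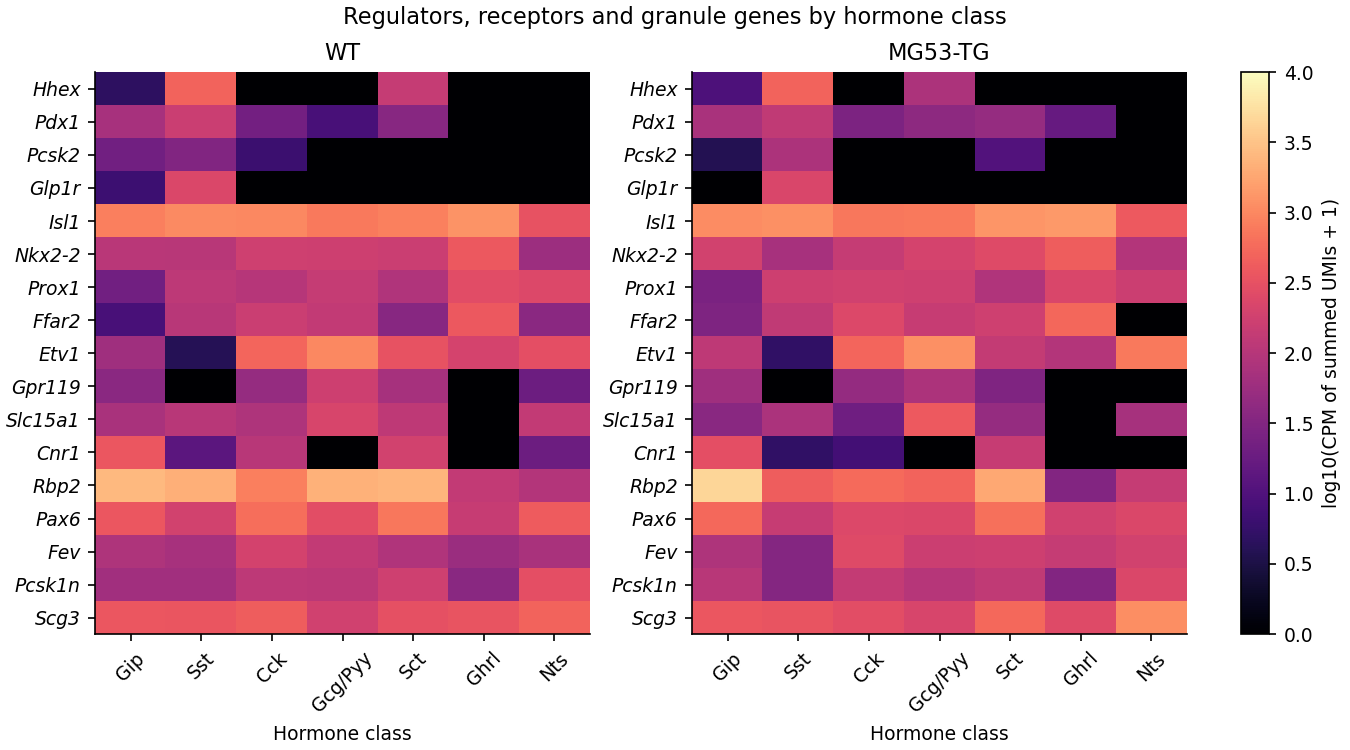
Level of 17 regulators, receptors and granule genes, as log10 of CPM plus 1 over summed UMIs, in each hormone class of WT (left) and MG53-TG (right). Hhex and Glp1r mark the Sst class and Cnr1 the Gip class in both libraries.

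Against the enterochromaffin cells of the same library, 80 of 6246 genes were at least 2-fold higher in both libraries (1.28%) and 187 were at least 2-fold lower in both (2.99%). This describes groups that were chosen on these counts. Without cells rich in other lineages 121 and 173 genes passed, of which 77 and 149 were shared with the former sets. Beside the hormones Gip, Pyy, Gcg, Iapp and Sst, the 10 highest genes were Cnr1, Hhex, Fabp5, Abcc8 and Sphkap. Fabp5, a fatty acid binding protein, stood at 2331 against 63.8 CPM in WT (log2 ratio 5.19, 4.93 to 5.47) and at 3637 against 111 CPM in MG53-TG (5.04, 4.74 to 5.35). Abcc8, a subunit of the potassium channel that couples glucose to secretion, stood at 82.6 against 4.95 CPM and at 141 against 9.74 CPM. Isl1 was higher, at 488 against 38.5 CPM and 910 against 78.0 CPM, as were Pax6 and Etv1 among the 7 of 25 transcription factors that passed upward. Among nutrient receptors 3 of 4 passed upward, with Ffar1, a receptor for long-chain fatty acids, at 88.3 against 17.0 CPM and at 180 against 52.4 CPM.

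The lowest genes against enterochromaffin cells, after Tph1 itself, which the rule sets to 0, were Afp, Tpbg, Cartpt, Fmo2, Slc38a11, Reg4, Trpa1, Lmx1a and Slc18a2. Lmx1a, a factor of serotonin cells, stood at 0.718 against 162 CPM in WT (log2 ratio -7.81, -10.87 to -5.95) and at 3.45 against 196 CPM in MG53-TG (-5.83, -7.47 to -4.58). Trpa1, an irritant sensor, was at 3.59 against 289 CPM and at 0.689 against 283 CPM. Of the enterochromaffin list, without the genes of the selection rule, 8 of 10 measured genes passed downward, where 2.99% of all genes did. Among granule genes outside the rule 3 of 13 passed downward (Pcsk1n, Ptprn and Rab3c) and 0 upward. Chga, a gene of the rule, was at 489 against 10392 CPM and at 814 against 10942 CPM. Reg4 was at 102 CPM in WT but at 3.45 CPM in MG53-TG cells, against 11755 and 12495 CPM in enterochromaffin cells.

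Between the genotypes, the transgene was checked in each library. Trim72 (chromosome 7, positions 128003949 to 128011033, plus strand) gave 1 UMI over the 181 WT cells (0.359 CPM). It gave 78 UMIs over the 109 MG53-TG cells (53.8 CPM), and was detected in 32.1% of the latter. The log2 ratio was 7.23 (4.71 to 12.55). Outside the gate it was at 0.596 and 48.9 CPM, and in enterochromaffin cells at 0 and 216 CPM. Of 8007 genes with at least 50 UMIs, 308 were at least 2-fold higher in MG53-TG (3.85%) and 183 were at least 2-fold lower (2.29%), and the median gene had a log2 ratio of 0.28. With that median set to 0, 89 were higher and 281 lower. Without the cells rich in other lineages, 143 of 7309 genes were higher (1.96%) and 219 lower (3.0%). Over the hormone-led cells, 38 of 6574 were higher (0.578%) and 71 lower (1.08%), of which 28 and 24 were also in the sets over all cells.

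The endocrine transcription factors were higher in MG53-TG over all cells, and the size of the difference depended on which cells were counted and how they were weighted. Over all selected cells 15 of 25 were at least 2-fold higher and none lower, where 3.85% of all genes were higher, and their median log2 ratio was 1.10 against 0.27 over all genes on the same scale (1 CPM added). Without the cells rich in other lineages 5 of 25 passed, where 1.96% of all genes did, with a median of 0.85 against 0.13. Over hormone-led cells 1 of 23 passed, where 0.578% of all genes did, with a median of 0.31 against 0.064. Neurod1 is 1 of the 6 genes that chose the cells. Without it, 14 of 24, 5 of 24 and 1 of 22 passed, with medians of 1.07, 0.84 and 0.31. When every cell had the same weight (mean of single-cell CPM), 3 of 25 passed over all cells, where 1.29% of all genes did, with a median of 0.54 against 0.099. Neurod1, a factor needed for several hormone fates, stood at 342 and 808 CPM (log2 ratio 1.24, 1.12 to 1.37), and at 612 and 847 CPM in hormone-led cells (0.47, 0.33 to 0.60). Rfx6, a winged-helix factor of endocrine cells, went from 71.1 to 194 CPM (1.45, 1.18 to 1.72) over all cells and from 126 to 219 CPM (0.80, 0.51 to 1.08) over hormone-led cells. Within the Gip class alone, the class with at least 20 cells in each library, it stood at 191 and 366 CPM (0.93, 0.55 to 1.32). Isl1 was at 488 and 910 CPM over all cells and at 922 and 1059 CPM over hormone-led cells. Pax6 had a log2 ratio of 0.59 over all cells, -0.01 (-0.21 to 0.18) over hormone-led cells and 0.59 (0.30 to 0.89) in the Gip class. In the Gip class 2 of 14 factors passed upward, where 1.36% of all genes did, and 13 had a ratio above 0. Their median there was 0.53 against 0.13 over all genes, and 0.49 without Neurod1.

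**Figure D5:**
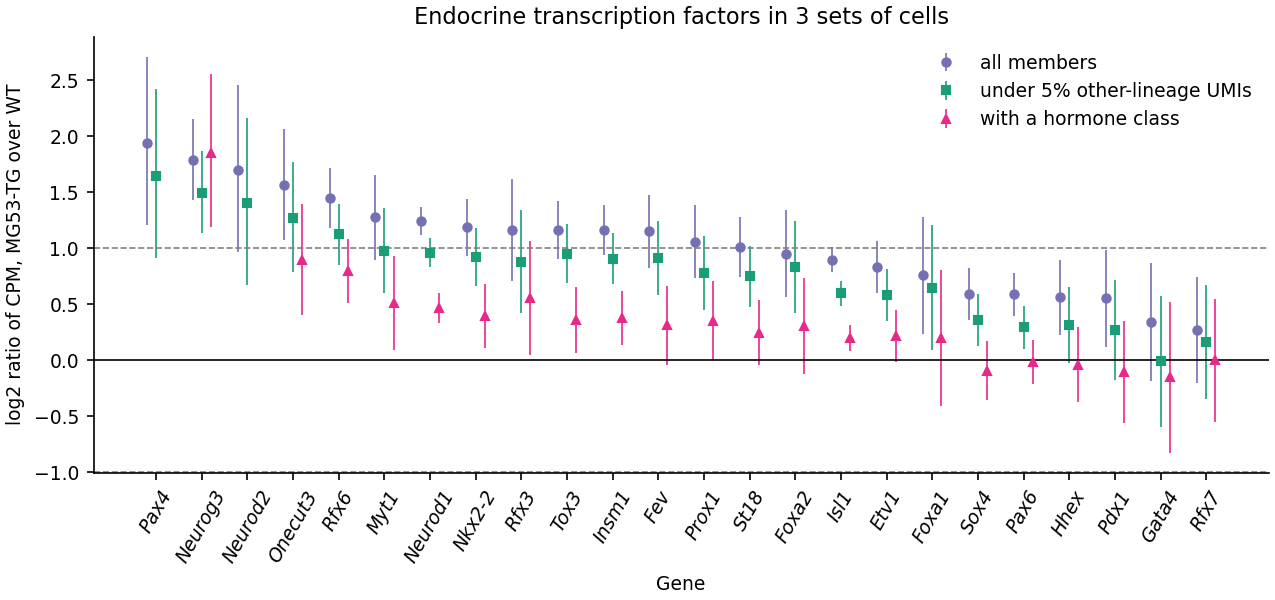
Log2 ratio of CPM, MG53-TG over WT, for 24 endocrine transcription factors, with 95% counting intervals, over all selected cells (circles), cells under 5% other-lineage UMIs (squares) and hormone-led cells with at least 50 UMIs of the gene (triangles). Dashed lines mark 2-fold, and most ratios shrink from 1 or more towards 0 in hormone-led cells, Neurog3 standing at 1.85, where 2 MG53-TG cells hold 44 of its 75 UMIs.

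Neurog3 stayed over 2-fold higher in MG53-TG without the cells rich in other lineages (1.5) and over hormone-led cells, but not in cells with at least 4 of the 6 gate genes (0.92). The value over hormone-led cells rested on 2 Cck-led cells of MG53-TG with 44 of its 75 UMIs, and without the Cck class it was 0.58 (-0.22 to 1.39). In the Ghrl class each library had 25 UMIs. By the mean of single-cell CPM its ratio was 1.14. Its UMIs numbered 100 for WT and 180 for MG53-TG, or 35.9 and 124 CPM (log2 ratio 1.79, 1.43 to 2.16). It was detected in 12 of 181 WT cells (6.63%, 3.47 to 11.3%) and in 18 of 109 MG53-TG cells (16.5%, 10.1 to 24.8%), with at most 23 and 28 UMIs in a single cell. Thinned to the UMI minimum, the shares were 3.82 and 8.64%. Outside the gate 0.312 and 0.403% of barcodes had a Neurog3 UMI. Over hormone-led cells the ratio was 1.85 (1.19 to 2.55), from 26 and 75 UMIs in 6 and 9 cells. Among enterochromaffin cells it was detected in 10 of 162 (6.17%) and 8 of 77 (10.4%). Pax4, a factor downstream of Neurog3, had few UMIs, 24 and 48 (log2 ratio 1.94, 1.21 to 2.71). Of the cells without a leading hormone and under 5% other-lineage UMIs, Neurog3 was detected in 6 of 24 in WT and 9 of 14 in MG53-TG, Neurod1 in 16 and 13, Sox4 in 14 and 11, and Insm1 in 10 and 13. The 18 WT cells without a leading hormone that were rich in other lineages had Neurog3 in 0 and Neurod1 in 4.

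Most hormone and granule genes differed less between the libraries when hormone-led cells were compared, with Nts as an exception. Over all cells, 0 of 9 hormones passed 2-fold, where 3.85% of all genes passed upward and 2.29% downward, with a median log2 ratio of 0.64, and the median was 0.27 without cells rich in other lineages and 0.035 over hormone-led cells, which were themselves chosen on these hormones. In those cells 5 of the 9 ratios were above 0 and 4 below. Gip stood at 29630 and 37676 CPM over all cells, but at 151348 and 144702 CPM in the Gip class. The summed levels of the other hormones tested in the Gip class were also lower in MG53-TG, 4 of 8 at least 2-fold with Gip counted, where 2.29% of all genes were. Single cells carried some of these sums. Of Sst UMIs in Gip-led cells 1 cell held 99.1% in WT and 1 held 97.1% in MG53-TG. For Sct the highest cells held 17.4 and 22.1%. Without the highest cell of each library, ratios were below 0 for Sct (-0.68), Pyy (-2.75), Gcg (-0.96), Sst (-0.41) and Gip (-0.10). Those of Cck (0.11), Iapp (0.17) and Ghrl (1.35) were above 0. Per cell, Sct was past 0.2% in 33 of 49 WT and 23 of 30 MG53-TG cells of the class. Nts was at 4072 and 3238 CPM over all cells, from 11 and 5 cells past 0.2%, and at 8090 and 4191 CPM over hormone-led cells (log2 ratio -0.95, -1.0 to -0.90). Among granule genes 2 of 19 passed upward over all cells, Chgb (3966 and 8435 CPM, log2 ratio 1.09) and Rab3c, and 0 of 17 over hormone-led cells, where Chgb had a ratio of 0.45 (0.41 to 0.49). The granule list holds 5 of the genes that chose the cells, Chgb among them, and without those 1 of 14 passed over all cells and 0 of 12 over hormone-led cells, where 0.578% of all genes did. Among nutrient receptors with enough UMIs, Ffar1 (1.03) and Ffar2 (1.42) passed over all cells, and over hormone-led cells their ratios were 0.44 and 0.77. Cnr1 did not differ detectably over all cells, at 83.6 and 83.4 CPM (-0.33 to 0.32), but it was at 165 and 108 CPM over hormone-led cells (log2 ratio -0.61, -0.94 to -0.29). In the Gip class, where Cnr1 was highest, the ratio was -0.31 (-0.67 to 0.04).

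The genes with the highest ratios, after Trim72, were Ooep, Tac1, Fgd2, Neurog3, Vim, Lhx1, Cdc42ep3, Onecut3 and Dbn1. Tac1, the precursor of substance P, gave 80 UMIs for WT and 211 for MG53-TG (28.7 and 145 CPM). It was detected in 14.9 and 23.9% of cells. Its ratio was 2.34 over all cells and 1.89 (1.45 to 2.35) over hormone-led cells, and its highest class was Sct in both libraries, from 3 cells in each. In the Gip class Tac1 did not differ detectably, with 24 and 17 UMIs (0.097, -0.89 to 1.05). In enterochromaffin cells, where Tac1 was at 2036 and 2731 CPM, the ratio was 0.42. Ooep was at 32.3 and 174 CPM (2.43) over all cells and at 60.7 and 132 CPM (1.12) over hormone-led cells. Vim, an intermediate filament gene, was at 47.0 and 159 CPM, and over hormone-led cells at 75.6 and 169 CPM (1.16, 0.81 to 1.52). Over hormone-led cells Cdc42ep3 had a ratio of 1.03, while Fgd2 (0.97), Onecut3 (0.90), Lhx1 (0.79) and Dbn1 (0.24, -0.36 to 0.83) were under 2-fold.

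The 10 lowest genes over all cells were Paneth cell products, led by Defa22 with 16764 UMIs for WT and 13 for MG53-TG. In the cells under 5% other-lineage UMIs Defa22 had 158 and 12, and the ratio moved from -9.39 to -3.07 (-4.05 to -2.22). Defensins are near-identical copies, and reads can be divided among them. In the restricted set the lowest were Fabp6, Jaml, Defa22, Defa21, Cenpa, Mki67, Slc51a, Gm14851, Apol10a and Bcl2l15. Fabp6, the ileal bile acid binding protein, had 142 UMIs for WT and 2 for MG53-TG there (log2 ratio -5.50, -8.56 to -3.62). Outside the gate Fabp6 stood at 339 and 146 CPM. Mki67, a gene of dividing cells, had 154 and 17 UMIs (-2.53, -3.35 to -1.80), and all 5 measured cycling markers were at least 2-fold lower there, where 3.0% of all genes were. Over hormone-led cells Mki67 was at 37.8 and 15.2 CPM (-1.32, -2.20 to -0.51). All 7 measured tuft markers were also at least 2-fold lower in the restricted set, and a cell's summed tuft share had a median of 0 in both libraries, with a highest value of 0.944% in WT and 0.621% in MG53-TG.

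The nuclear receptor PPARα, named beside MG53 in the title of the deposited series, did not differ detectably between the libraries, and its target genes went different ways in different sets of cells. Ppara gave 36 and 20 UMIs (12.9 and 13.8 CPM, log2 ratio 0.093, -0.77 to 0.92), and Ppard was at 26.9 and 31.7 CPM (0.24, -0.33 to 0.78). Of 31 genes of PPAR signalling and fatty acid oxidation, 1 passed upward and 1 downward over all cells, near the shares over all genes (3.85 and 2.29%). The median ratio was 0.087 against 0.27 over all genes, and -0.14 against 0.13 without the cells rich in other lineages, where 7 of 27 genes had a ratio above 0. In the Gip class the list lay higher, with 15 of 18 ratios above 0 and a median of 0.45 against 0.13, and 3 of 18 passed upward, where 1.36% of 2797 genes did. Fabp1, a fatty acid binding protein of absorptive cells, had the most UMIs of the list, at 2556 and 3122 CPM, with a ratio of 0.29 over all cells, -0.80 without the cells rich in other lineages and -0.19 over hormone-led cells. In the Gip class Fabp1 was at 676 and 3650 CPM (2.43, 2.26 to 2.61), and Fabp2, its intestinal relative, had a ratio of 1.15. In MG53-TG 1 cell held 79.1% of those Fabp1 UMIs and 1 held 60.6% of those of Fabp2. Without the highest cell of each library the ratios were 0.49 and 0.093. Creb3l3 also passed upward in the class, with a ratio of 1.28 (0.62 to 1.95). It stayed at 1.12 without the highest cells, and 1 MG53-TG cell held 30.2% of its UMIs. The absorptive markers Rbp2 (2596 and 4625 CPM) and Apoa4 (257 and 502 CPM) were also higher in the class by summed UMIs. Of their MG53-TG UMIs 21.6 and 88.7% were in 1 cell. Without the highest cell of each library Rbp2 had a ratio of 0.50, while Apoa4 was lower in MG53-TG (-1.74). Inflammation genes were lower in part. Over all cells 1 of 14 was at least 2-fold lower, where 2.29% of all genes were, and none was higher (median -0.19 against 0.27). In the restricted set 5 of 11 were lower, where 3.0% of all genes were (median -0.68 against 0.13). Reg3b and Reg3g, antimicrobial lectins, stood at 6061 and 7329 CPM and at 2159 and 2575 CPM over all cells, ratios of 0.27 and 0.25. Over hormone-led cells they went the other way, at 3508 and 688 CPM and at 1396 and 287 CPM, with ratios of -2.35 (-2.46 to -2.24) and -2.28 (-2.46 to -2.11). In the Gip class the ratios were -0.28 for Reg3b and -1.23 (-1.56 to -0.91) for Reg3g. There 1 MG53-TG cell held 44.9% of the Reg3b UMIs and 1 held 49.5% of those of Reg3g. Without the highest cell of each library the ratios were -0.79 and -1.72. Reg3b was at 16440 and 10868 CPM outside the gate and at 11773 CPM in WT droplets under 100 UMIs, and the part of free RNA in its level here was not tested. Dmbt1 was at 907 and 426 CPM over all cells (-1.09, -1.22 to -0.96) and had a ratio of -0.67 over hormone-led cells, and Cd74, the invariant chain of antigen presentation, at 441 and 283 CPM (-0.64, -0.81 to -0.48).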

How the data were processed

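Single-cell RNA-seq counts were deposited as 1 matrix per library of UMIs per gene (32285 genes) and barcode. The deposited counts were made by the authors with Cell Ranger, version 4 for WT and cellranger-6.0.1 for MG53-TG per the file headers, and the submitters' processing notes name mm10 and Seurat. WT held all 2005718 barcodes, empty droplets included, and MG53-TG 12361 barcodes with at least 500 UMIs, so that program version, barcode list and genotype cannot be told apart. Total depth was 158455748 UMIs in WT and 128227881 in MG53-TG. Selected cells had a median of 9682 and 10969 UMIs.

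UMIs were summed over cells and given in CPM of all UMIs of those cells. Genes with at least 50 UMIs in both groups together were compared by log2 ratio, and 2-fold (log2 of 1) in either direction was called. Shares have exact Clopper-Pearson intervals, differences Newcombe intervals and ratios exact conditional binomial intervals, at 95%. All intervals cover counting error only. List medians used 1 CPM added. Thinning drew 1354 UMIs per cell without replacement, 20 times for hormone classes and gate, and as an expected share for detection. No cell was left out by it. Doublets were scored with Scrublet in scanpy 1.11.5. Its automatic limit marked 0.0135% of WT and 0.0388% of MG53-TG barcodes and so had not worked, and the main selection kept all barcodes. Named genes were all of the hormone, gate, granule, transcription factor and nutrient receptor lists, up to 4 of other lists by UMIs with Trim72 and the PPAR receptors, and the 10 highest and 10 lowest ratios among genes with 50 CPM and detection in 10% of cells of the higher library. The cells, lists and rules were chosen with earlier results of these data known, and the restriction to hormone-led cells was added after the values were seen, as were the restricted list medians, the lists without genes of the rule, the values without single cells or the Cck class and the restricted comparison with enterochromaffin cells. Reg1, Efna1 and Creb3l3 were also named after their values were seen. A gene of these lists is counted but not reported here by name. Promoter windows are RefSeq's for GRCm38.p6, and gene positions GENCODE vM21's. The ratio code was tested on simulated counts, and the expected thinned shares were checked against repeated draws. Python 3.11.15, numpy 2.4.6, scipy 1.17.1 and pandas 2.3.3 were used.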

Additional observations from a re-analysis of the deposited data

Results flagged for a closer look

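Results that moved in opposite directions in the libraries were looked for in the comparison with enterochromaffin cells. A pair of genes was past 2-fold in opposite directions, and the difference between libraries was not tested. Reg1 had a log2 ratio of selected over enterochromaffin cells of -1.01 in WT (210 and 277 UMIs) and 2.39 in MG53-TG (650 and 70 UMIs). The 650 UMIs came from 8.26% of the MG53-TG cells, and 339 of them remained in cells under 5% other-lineage UMIs. Efna1 had log2 ratios of -1.07 (38 and 52 UMIs) and 1.18 (40 and 10 UMIs), and -0.68 and 0.87 in cells under 5% other-lineage UMIs.

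Barcodes with 25 to 50% mitochondrial UMIs were used in no comparison other than that of shares under the 50% mitochondrial limit. Among them the rest of the rule was met by 7 of 2138 in WT (0.327%, 0.132 to 0.673%), of which 3 had a leading hormone, and by 5 of 2697 in MG53-TG (0.185%, 0.0602 to 0.432%), of which 4 had one.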

How the results depend on the processing

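With 1 library per genotype nothing could be left out, and no call rests on replicates. No paired analysis was possible because each genotype had a single library. Depth limited rare transcripts, since a class of 9 cells holds few UMIs. The share difference (-0.330 points) ranged from -0.519 to 0.110 under 7 of 8 alternatives, and with 2 of 6 gate genes it was -1.78. Its interval excluded 0 with 2 gate genes and with a 50% mitochondrial limit (-0.519). The difference in cells without a leading hormone was 3.38 points with a 1% minimum. The other class differences stayed within their intervals under a minimum of 0.1 or 1%, 4 gate genes and thinning.

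Counts of genes at least 2-fold higher and lower between libraries (308 and 183) were 89 and 281 with the median ratio set to 0 (a shift of 0.28), 661 and 372 with a minimum of 20 UMIs, 60 and 65 with 200, 46 and 117 with 4 gate genes, 38 and 64 in the Gip class, and 38 and 71 in hormone-led cells. Genes higher were 103 by the mean of single-cell CPM and 143 without cells rich in other lineages. Genes higher than in enterochromaffin cells (80) were 126 by the mean of single-cell CPM, 121 without cells rich in other lineages and 138 in hormone-led cells. The cause was not tested beyond the number of genes tested and cells left out.

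Median log2 ratios of lists moved as follows. With the median ratio set to 0, granule genes were at 0.36, transcription factors at 0.82 and PPAR genes at -0.19. By the mean of single-cell CPM, hormones were at -0.0926, granule genes at 0.14 and transcription factors at 0.54. With 4 gate genes, chosen for lists after seeing the data, hormones were at 0.0393, granule genes at 0.26, transcription factors at 0.49, PPAR genes at -0.0915 and inflammation genes at -0.73. Without cells rich in other lineages, hormones were at 0.27, granule genes at 0.36, PPAR genes at -0.14 and inflammation genes at -0.68. In hormone-led cells, hormones were at 0.0347, granule genes at 0.11 and transcription factors at 0.31. Without the gate genes, the medians over all cells were 1.07 for transcription factors and 0.63 for granule genes.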
